A study of Mus musculus with 12 samples.

Results

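A set of 9 genes of the insulin-like growth factor (IGF) and phosphoinositide 3-kinase (PI3K) pathway was followed through mouse hematopoietic stem cells of 2 ages and 2 sorted fractions. They were chosen by name: Igf1 (the ligand), Igf1r and Igf2r (receptors), Irs1 and Irs2 (adaptors), Pik3r1, Pik3ca and Pik3cd (PI3K subunits) and Akt1 (the kinase that acts next). All 9 were present among the 20457 genes of the table, and 8 of them were among the 14803 genes with enough reads to test. Irs1 was not.

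The cells were bone marrow stem cells of C57BL/6 mice, and each library was made from 50 sorted cells by Smart-Seq2, an amplification method that yields full-length cDNA and marks no molecules. The 4 groups were IL27RA- cells of 2 months (young IL27RA-), IL27RA+ cells of 2 months (young IL27RA+), IL27RA- cells of 28 months (old IL27RA-) and IL27RA+ cells of 28 months (old IL27RA+), with 3 libraries each. IL27RA is the receptor subunit that binds interleukin 27, and the design crosses its presence on the cell with age. The sources used here do not state the other surface markers of the sort. No label ties libraries to separate mice, so that every p-value below measures only how much these samples vary, which may be technical.

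The libraries held between 11669083 and 24153167 reads in genes, and the 3 young IL27RA- libraries were the deepest. In the unit used below, the normalized count (reads divided by a size factor of the library), 3 reads correspond to between 1.93 and 3.77. All 10 stem cell markers examined were measured in every group, with a summed level of 63876 to 75073 normalized counts in young IL27RA-, 56451 to 64501 in young IL27RA+, 70928 to 75877 in old IL27RA- and 51335 to 60739 in old IL27RA+ cells, so that the old fractions did not overlap. One label of old IL27RA- replicate 1 says young, while its title and age say old. That library also held 312300 normalized counts of Igkc and 60227 of Jchain (named Igj in the table), which are antibody genes of plasma cells, so several differences are also given without it. In libraries of pooled cells, fewer cells that express a gene and less RNA per cell cannot be told apart.

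IGF1 is a secreted growth factor that binds the receptor kinase IGF1R, while IGF2R binds IGF2 and carries it to lysosomes. The activated receptor phosphorylates the adaptors IRS1 and IRS2, which recruit class I PI3K, a dimer of a regulatory subunit (such as p85 alpha, from Pik3r1) and a catalytic one (such as p110 alpha from Pik3ca or p110 delta from Pik3cd, the form typical of blood cells). The lipid that PI3K makes brings AKT1 to the membrane, and AKT keeps FoxO transcription factors out of the nucleus and turns on mTOR complex 1. In blood stem cells this pathway is known for its part in the balance between quiescence and division.

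Pik3cd and Pik3r1 showed the clearest patterns among the PI3K subunits, the first by age and the second by fraction, and the 250 bases before a start site of each are printed here as 1 example for each gene. The sequences are from RefSeq on GRCm38.p6, where all 9 genes were matched and had 13 start sites, and capitals mark each GC box (GGGCGG).
Pik3cd, start site 3, chr4:149698709-149698958, minus strand: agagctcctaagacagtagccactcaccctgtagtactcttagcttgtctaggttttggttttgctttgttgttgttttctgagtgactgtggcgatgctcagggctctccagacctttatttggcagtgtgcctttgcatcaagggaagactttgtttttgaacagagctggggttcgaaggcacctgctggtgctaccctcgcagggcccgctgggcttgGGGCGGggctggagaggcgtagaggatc
Pik3r1, start site 2, chr13:101768218-101768467, minus strand: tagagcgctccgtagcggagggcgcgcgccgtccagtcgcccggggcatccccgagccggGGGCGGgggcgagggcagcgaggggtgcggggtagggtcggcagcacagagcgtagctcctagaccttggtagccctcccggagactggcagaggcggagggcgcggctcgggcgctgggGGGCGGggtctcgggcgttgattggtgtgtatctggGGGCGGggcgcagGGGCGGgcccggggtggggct
The Pik3cd window had a GC content of 53.6% and held 1 GC box. The Pik3r1 window had a GC content of 76.4% and held 4. Over all 32851 promoter windows of this length the median GC content was 52.4%, and 32.7% held a GC box on either strand. The E-box CACGTG, present in 6.02% of all windows, was found before Irs1 and Irs2 at 1 place each and before Igf2r at 2 places. The FoxO motif GTAAACA (3.17% of all windows) was found before start site 2 of Akt1, the ETS motif CCGGAAG (6.91%) before Pik3ca and the TATA box TATAAA (12.4%) before start site 1 of Pik3r1. The CRE TGACGTCA (1.55%), the E2F motif TTTCGCGC (0.256%), the Runx motif TGTGGTTA (0.642%) and the GATA motif AGATAAG (2.74%) were found in none of the 13 windows. Both strands were searched, these motifs were the only ones looked for, and no searched motif was found before Igf1. All 250 bases of the Igf1 window lie in annotated exons, against at most 4 in any other window. Other start sites of the same genes differed from those printed: start site 1 of Pik3r1 had a GC content of 42.4% and no GC box, start site 1 of Pik3cd 54% and none, and start site 2 of Pik3cd 66% and 3. Which start sites these cells use was not measured, so nothing is read from the contrast of the printed windows.

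Igf1, the ligand, was high in young IL27RA- cells, lower in young IL27RA+ cells and lowest in both old groups. Its normalized counts in replicates 1, 2 and 3 were 603.4, 801.5 and 1038.8 in young IL27RA- cells. They were 458.7, 338.6 and 234.5 in young IL27RA+ cells, 69.3, 81.0 and 106.7 in old IL27RA- cells, and 115.5, 54.6 and 109.0 in old IL27RA+ cells. Every young library was above every old library, and within young cells every IL27RA- library was above every IL27RA+ library. How many of all genes separated the ages across both fractions was not counted. The old fractions overlapped.

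Averaged over the fractions, Igf1 fell with age by 2.56 ± 0.40 (SE) on the log2 scale, a 5.89-fold difference (95% interval -3.42 to -1.70, limma adjusted p = 0.00333), and by 2.49 without old IL27RA- replicate 1 (0.00750). Within IL27RA- cells it fell by 3.22 ± 0.57, from 815 ± 218 to 85.7 ± 19.1 normalized counts (SD, n = 3 each, limma adjusted p = 0.0178). That call was lost without young IL27RA- replicate 3 (adjusted p = 0.0669) or without old IL27RA- replicate 1 (0.0570), 2 (0.0674) or 3 (0.0507), and with those 2 groups fitted alone (0.107). Within IL27RA+ cells the difference was -1.90 ± 0.57, from 344 ± 112 to 93.0 ± 33.4 normalized counts, and did not pass (95% interval -3.11 to -0.69, limma adjusted p = 0.258). The age differences of the 2 fractions were not shown to differ from each other (interaction 1.33 ± 0.80, limma adjusted p = 0.942).

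Igf1 did not pass for the fractions: IL27RA+ minus IL27RA- was -1.26 ± 0.57 in young cells (limma adjusted p = 0.597) and 0.07 ± 0.57 in old cells (limma adjusted p = 1). Leaving out single libraries turned the sign of the old value, which ran from -0.13 to 0.41.

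Values of other cells stood beside the Igf1 pattern as follows. IGF1 is also made by macrophages and stromal cells. The summed level of 14 macrophage markers was 12218 to 14491 normalized counts in young IL27RA- cells, where Igf1 was highest, 15396 to 25139 in young IL27RA+ cells, 10776 to 14445 in old IL27RA- cells and 15001 to 24502 in old IL27RA+ cells. Most of each sum was Lyz2, with group means of 12262 to 14102, while C1qa, a complement gene of macrophages, averaged 45.2, 909, 30.5 and 925 in the same order of groups. Adgre1 and Fcgr1, which mark macrophages, had no read in either IL27RA- group, and none of the 14 was called between ages. The summed level of the 9 stroma markers measured was 145 to 561 in young IL27RA- cells, 130 to 469 in young IL27RA+ cells, 32.2 to 402 in old IL27RA- cells and 266 to 284 in old IL27RA+ cells. Cxcl12, Lepr and Col3a1 had no read in either IL27RA- group, while the library with the most Igf1, young IL27RA- replicate 3, held 368.2 normalized counts of Col1a2, a collagen of stromal cells, the highest of the 12 libraries. In IL27RA+ cells Cxcl12, a chemokine of marrow stroma, was called lower with age, from 219 ± 170 to 0.319 ± 0.553 normalized counts (limma adjusted p = 0.0221), in the direction of Igf1. Of the 5 stroma markers tested, 3 had a positive and 2 a negative age difference in IL27RA+ cells (median 2.35). Col1a2 there went from 11.6 ± 10.8 to 144 ± 67.5 and was not called. The part of macrophages and stromal cells in the Igf1 difference was not tested. Read depth was highest in the young IL27RA- libraries. It was 11669083 to 16480943 reads in the young IL27RA+ libraries and 12756522 to 17822817 reads in the old ones. The part of read depth in the Igf1 difference was not tested.

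**Figure D1:**
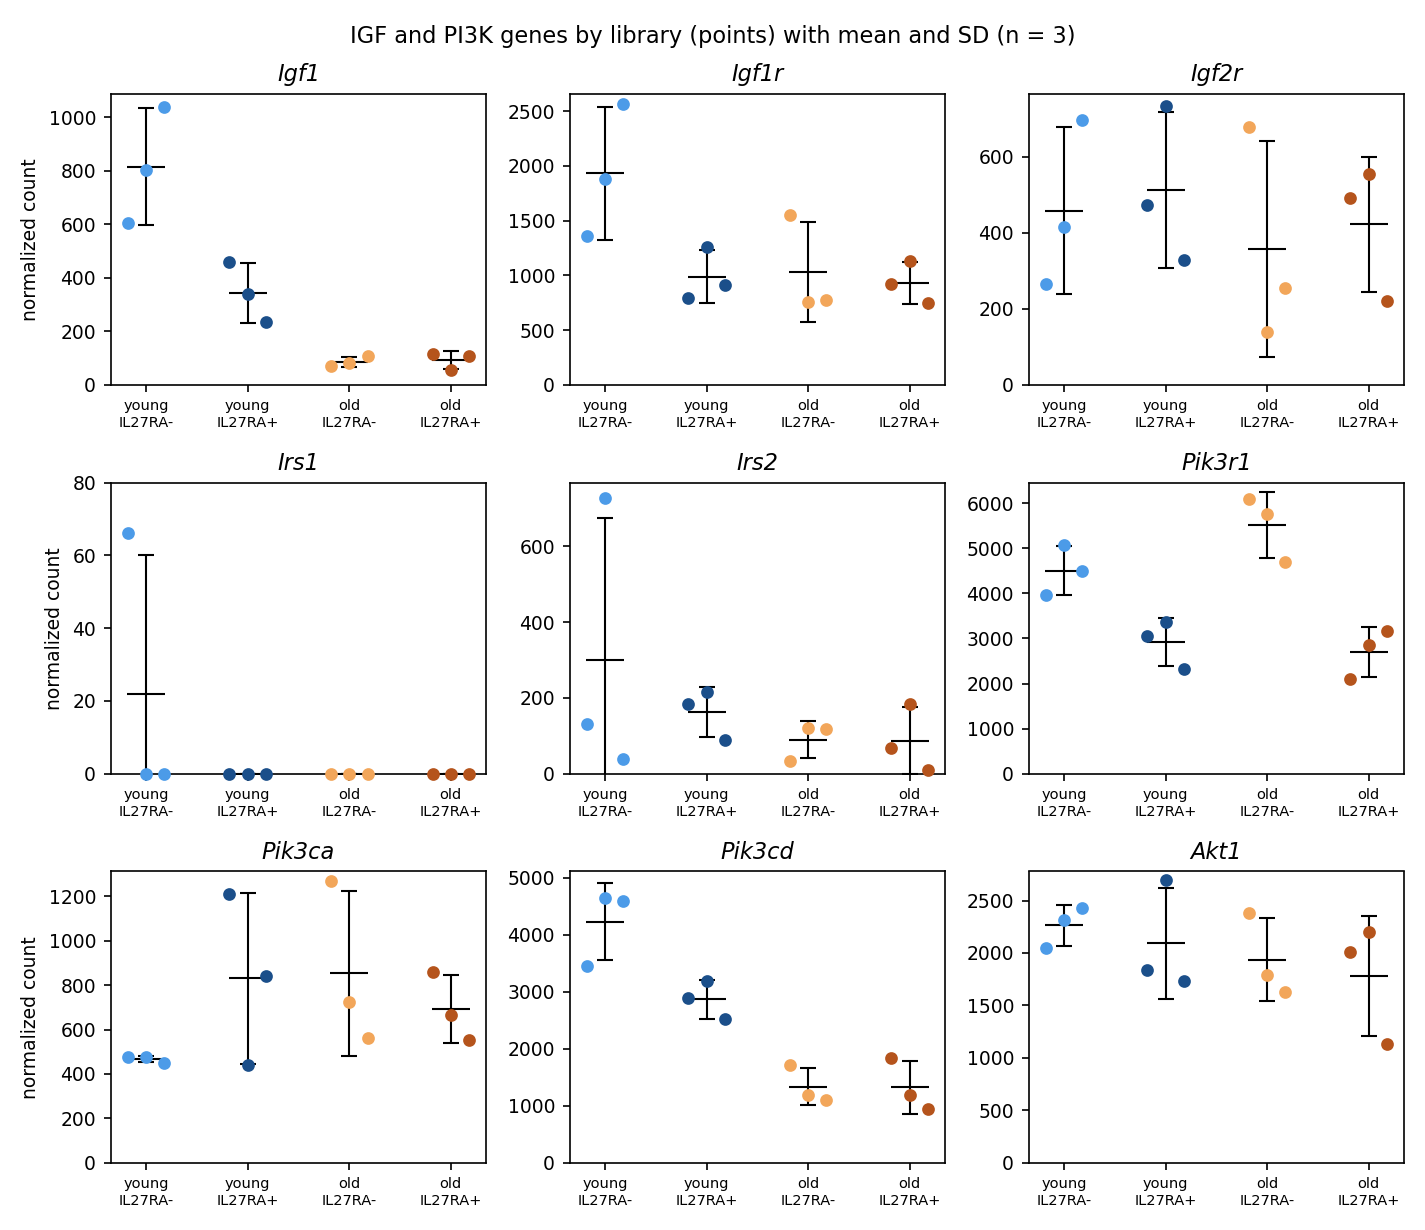
Normalized count (vertical axis, linear, from 0) of each of the 9 genes in each of the 12 libraries (points, replicates 1 to 3 from left to right), with the group mean and SD (n = 3, bars cut at 0) by age and fraction (horizontal axis). Igf1 and Pik3cd are lower in every old library than in every young one, and Pik3r1 is lower in every IL27RA+ library than in every IL27RA- library. The share of all genes that separate in these ways was not counted.

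The other ligands and binding proteins gave no call. Of 9 genes listed, 7 were measured and 3 had enough reads, and none of these was called between ages or between fractions. Igf2, the second IGF ligand, was low in every group, with means of 102 ± 74.8, 77.4 ± 74.9, 60.1 ± 42.7 and 22.4 ± 20.5 normalized counts in young IL27RA-, young IL27RA+, old IL27RA- and old IL27RA+ cells (SD, n = 3 each). Igfbp4, a secreted protein that binds IGFs, stood at 6181 ± 1509, 4325 ± 952, 5147 ± 1808 and 3717 ± 672 in the same order. Its difference was -0.25 ± 0.20 by age (limma adjusted p = 0.614) and -0.47 ± 0.20 by fraction (0.563), while Igf2 differed by -0.92 ± 1.34 by age (0.814) and by -1.94 ± 1.34 by fraction (0.783). Igfbp7, another binding protein, had no read in the 3 young IL27RA- libraries and 62.8 to 72.6 normalized counts in old IL27RA- cells. Its age difference did not pass (limma adjusted p = 0.240). In IL27RA+ cells the ages overlapped, with 5.02 to 92.0 in young and 0 to 229 in old libraries.

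Igf1r, the receptor of IGF1, was highest in young IL27RA- cells with close means in the other 3 groups. Its normalized counts in replicates 1, 2 and 3 were 1355.6, 1876.4 and 2561.0 in young IL27RA- cells and 791.5, 1257.9 and 913.0 in young IL27RA+ cells. They were 1553.2, 755.6 and 776.0 in old IL27RA- cells, and 922.2, 1130.3 and 745.3 in old IL27RA+ cells. The young fractions did not overlap, while old IL27RA- replicate 1 lay among the young IL27RA- libraries. No comparison passed: the age difference was -0.95 ± 0.35 in IL27RA- cells (limma adjusted p = 0.283; -1.29 without old IL27RA- replicate 1, 0.180), -0.08 ± 0.35 in IL27RA+ cells (0.976) and -0.51 ± 0.25 on average (0.351; -0.68 without old IL27RA- replicate 1, 0.188). The fraction difference was -0.95 ± 0.35 in young cells (limma adjusted p = 0.489), -0.08 ± 0.35 in old cells (1) and -0.51 ± 0.25 on average (95% interval -1.04 to 0.02, 0.650). The interaction was 0.87 ± 0.50 (limma adjusted p = 0.942).

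Igf2r, the receptor that clears IGF2, varied as much inside groups as between them. Its normalized counts were 265.1, 414.3 and 696.4 in young IL27RA- cells, 474.7, 734.1 and 328.6 in young IL27RA+ cells, 678.9, 140.1 and 253.7 in old IL27RA- cells, and 492.5, 554.6 and 220.3 in old IL27RA+ cells. All groups overlapped. Its difference was -0.43 ± 0.43 by age (95% interval -1.36 to 0.49, limma adjusted p = 0.711) and 0.32 ± 0.43 by fraction (0.916). Without old IL27RA- replicate 1 these were -0.74 (0.443) and 0.62 (0.782).

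The IRS adaptors were scarce. Irs1 had 83 reads (66.1 normalized counts) in young IL27RA- replicate 1 and none in the other 11 libraries, where 3 reads set the limit of what a count of 0 allows. It shares 2822 exon bases, 30.9% of its exons, with the antisense gene Gm9747, and the sources used here do not state whether reads were counted by strand, so its value is uncertain. Irs2 had 131.3, 727.8 and 38.6 normalized counts in young IL27RA- cells, 184.2, 214.8 and 90.3 in young IL27RA+ cells, 33.7, 119.4 and 116.8 in old IL27RA- cells, and 68.4, 184.9 and 9.4 in old IL27RA+ cells. Its spread within young IL27RA- cells, set by replicate 2, was wider than its range over all other libraries. Irs2 differed by -1.29 ± 0.85 by age (95% interval -3.10 to 0.52, limma adjusted p = 0.512) and by -0.32 ± 0.85 by fraction (0.965), or -0.99 and -0.62 without old IL27RA- replicate 1, and the latter turned its sign when single libraries were left out.

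Of the 9 other receptor and adaptor genes, all tested, Sos1 was called higher with age and no other was called. SOS1 is the exchange factor that links adaptors to RAS. Its normalized counts were 295.3, 206.8 and 555.5 in young IL27RA- cells, 862.9, 370.4 and 568.1 in young IL27RA+ cells, 1363.5, 798.1 and 699.4 in old IL27RA- cells, and 1251.2, 1369.8 and 1340.6 in old IL27RA+ cells. The old groups lay above the young group of their own fraction. Averaged over fractions Sos1 rose by 1.36 ± 0.30 (limma adjusted p = 0.0330), against 1.38% of all genes called higher with age. Its call was lost in 9 of 21 alternatives. Among them, leaving out young IL27RA- replicate 2 gave an adjusted p of 0.0622, young IL27RA+ replicates 2 and 3 gave 0.0814 and 0.0685, old IL27RA- replicates 1 and 2 gave 0.0792 and 0.0663, and old IL27RA+ replicates 1, 2 and 3 gave 0.0803, 0.0898 and 0.0877. Gab2, a docking adaptor, had the next smallest p (1.18 ± 0.53, limma adjusted p = 0.314). Between fractions Sos1 differed by 0.67 ± 0.30 (limma adjusted p = 0.613) and its relative Sos2 by -0.66 ± 0.33 (0.653).

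Pik3r1, the regulatory subunit p85 alpha, split the libraries by sorted fraction and not by age. Its normalized counts in replicates 1, 2 and 3 were 3960.1, 5063.7 and 4493.2 in young IL27RA- cells and 3045.5, 3376.0 and 2331.3 in young IL27RA+ cells. They were 6091.4, 5771.5 and 4692.7 in old IL27RA- cells and 2096.7, 2849.8 and 3163.9 in old IL27RA+ cells. Every IL27RA+ library was below every IL27RA- library, across both ages. How many of all genes separated the fractions in this way was not counted.

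Averaged over ages, Pik3r1 differed by -0.84 ± 0.16 between IL27RA+ and IL27RA- cells, 1.79-fold, which missed the threshold over all genes (95% interval -1.18 to -0.50, limma adjusted p = 0.0522). It passed without young IL27RA- replicate 1 (0.0307), with library weights (0.0433) and with a pseudocount of 8 (0.0484), and the adjusted p ran from 0.0307 to 0.200 over the alternatives. Without old IL27RA- replicate 1 the difference was -0.80 (0.133). By age the group means were 2918 ± 534 against 4506 ± 552 in young cells (-0.64 ± 0.23, limma adjusted p = 0.456) and 2703 ± 548 against 5519 ± 733 in old cells (-1.04 ± 0.23, 0.142; 0.0224 with library weights). The age difference was 0.29 ± 0.23 in IL27RA- cells (limma adjusted p = 0.630), -0.11 ± 0.23 in IL27RA+ cells (0.944) and 0.09 ± 0.16 on average (95% interval -0.25 to 0.43, 0.852), and the interaction was -0.40 ± 0.32 (0.942).

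Markers of other cells and of division also moved with the fraction. Of the 14 macrophage markers, 4 were called higher in IL27RA+ cells on average over ages. Of the 20 cell cycle genes, all had a positive fraction difference and 2 were called. The summed level of these 20 was 5067 to 8451 normalized counts in old IL27RA- cells, where Pik3r1 was highest, and 19190 to 27950 in old IL27RA+ cells. In young cells it was 13505 to 19630 in the IL27RA- and 10394 to 22527 in the IL27RA+ fraction, which overlapped, while Pik3r1 did not. In the direction of Pik3r1, 9 of the 10 stem cell markers had a negative fraction difference (none called, 3 at an unadjusted p under 0.05). Of 5 megakaryocyte markers, 1, Vwf, was called lower in IL27RA+ cells on average over ages. The other 4 had a positive fraction difference (median of the 5, 0.77), and none of them was called. Vwf, a clotting factor gene that platelet-biased stem cells also express, averaged 2819 and 3296 normalized counts in young and old IL27RA- cells against 975 and 2291 in young and old IL27RA+ cells. All 8 erythroid markers tested had a positive fraction difference (median 2.15, none called). Of 6 neutrophil and granule markers tested, 5 had a positive and 1 a negative fraction difference (median 2.65). None of these 6 was called, and 4 had an unadjusted p under 0.05, as had 7.98% of all genes. The part of all these in the Pik3r1 difference was not tested.

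Pik3cd, the catalytic subunit p110 delta, fell with age. Its normalized counts in replicates 1, 2 and 3 were 3449.9, 4649.4 and 4588.5 in young IL27RA- cells and 2883.8, 3190.8 and 2514.4 in young IL27RA+ cells. They were 1707.2, 1189.4 and 1108.8 in old IL27RA- cells and 1838.0, 1180.1 and 950.4 in old IL27RA+ cells. Every young library was above every old one, the young fractions did not overlap, and the old fractions did. As for Igf1, the share of all genes that separated the ages so was not counted.

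On average over the fractions Pik3cd fell by 1.42 ± 0.19 on the log2 scale, 2.67-fold (95% interval -1.84 to -1.002, limma adjusted p = 0.00113), and by 1.51 without old IL27RA- replicate 1 (0.00167). Within IL27RA- cells it fell by 1.68 ± 0.28, from 4229 ± 676 to 1335 ± 325 normalized counts (limma adjusted p = 0.0123), and by 1.87 without old IL27RA- replicate 1 (0.0231). That call was lost without old IL27RA- replicate 2 (0.0646) or 3 (0.0616) and with those 2 groups fitted alone (0.107). Within IL27RA+ cells the difference of -1.16 ± 0.28, from 2863 ± 339 to 1323 ± 461, did not pass (95% interval -1.75 to -0.57, limma adjusted p = 0.107), and the interaction was 0.51 ± 0.39 (0.942). Between fractions Pik3cd differed by -0.56 ± 0.28 in young cells (limma adjusted p = 0.626), -0.04 ± 0.28 in old cells (1) and -0.30 ± 0.19 on average (0.759).

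Markers of other cells and of division also moved with age. Of 4 endothelium markers, 2 had a positive and 2 a negative age difference on average (median 0.36). The only 1 called was Emcn, which stem cells also express, lower with age in the direction of Igf1 and Pik3cd. It went from 1944 and 1963 normalized counts in young IL27RA- and IL27RA+ cells to 950 and 735 in old ones (limma adjusted p = 0.00925). Kdr went the other way, from 39.0 and 58.6 in young IL27RA- and IL27RA+ cells to 336 and 143 in old ones. Within IL27RA- cells 18 of the 20 cell cycle genes had a negative age difference (median -1.47), 12 had an unadjusted p under 0.05 and 2, Uhrf1 and Ncaph, were called lower. Within IL27RA+ cells 19 of the 20 had a positive age difference (median 0.77, none called). Their interaction of age and fraction was positive for all 20 (11 at an unadjusted p under 0.05, none called). Of 8 neutrophil and granule markers, 6 were tested, with 2 positive and 4 negative age differences on average (median -0.24). Only 1 of them, the protease gene Prtn3, was called on average, higher in old cells. The sum of the 8 was 3646 to 4436 normalized counts in young IL27RA-, 4073 to 5484 in young IL27RA+, 9052 to 13163 in old IL27RA- and 7794 to 10593 in old IL27RA+ cells, and nearly all of it was Prtn3. Mpo and Ctsg, which define neutrophil granules, had no read in either old group or in young IL27RA- cells. In young IL27RA+ cells Ctsg had 9 reads in all. Mpo was called lower with age in IL27RA+ cells, from 69.1 normalized counts to 0 (limma adjusted p = 0.0498). Of 2 T and natural killer cell markers measured, 1, the lectin receptor gene Klrb1c, was called higher in old cells, and the sum of the 2 was 15.0 to 455 in young IL27RA-, 208 to 236 in young IL27RA+, 1415 to 2928 in old IL27RA- and 692 to 1500 in old IL27RA+ cells. Of 8 erythroid markers tested, 1 had a positive and 7 a negative age difference on average (median -0.97, none called). In IL27RA+ cells all 8 were negative (median -2.22), and in IL27RA- cells 6 were positive and 2 negative (median 0.52). Of 5 megakaryocyte markers, 4 had a positive and 1 a negative age difference on average (median 0.31), and 1 was called higher. The part of all these markers in the Igf1 and Pik3cd differences was not tested.

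Pik3ca, the catalytic subunit p110 alpha, had close values in young IL27RA- cells (477.6, 475.2 and 449.9 normalized counts) and scattered ones elsewhere. They were 1211.6, 440.9 and 841.5 in young IL27RA+ cells, 1270.1, 724.4 and 562.6 in old IL27RA- cells, and 857.5, 666.7 and 553.1 in old IL27RA+ cells. The 3 old IL27RA- libraries were above the 3 young IL27RA- ones, as were 7.8% of all genes, by 0.78 ± 0.41 (95% interval -0.11 to 1.67, limma adjusted p = 0.465; 0.45 without old IL27RA- replicate 1, 0.775). The average differences were 0.31 ± 0.29 by age (limma adjusted p = 0.694) and 0.24 ± 0.29 by fraction (0.908), or 0.14 and 0.40 without old IL27RA- replicate 1.

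To compare levels between genes, normalized counts were divided by the length of merged exons in kilobases. Over the 12 libraries the mean level per kb was 492 for Akt1, 389 for Pik3cd, 388 for Pik3r1, 78.2 for Pik3ca, 72.6 for Igf1r, 47.0 for Igf2r, 33.8 for Igf1, 25.3 for Irs2 and 0.602 for Irs1. Akt1, Pik3cd and Pik3r1 thus stood well above the receptors, the adaptors and the ligand. Per group, Pik3cd changed place: it stood at 676 ± 108 per kb in young IL27RA- cells, above Akt1 at 553, and at 213 ± 51.9 in old IL27RA- cells, below Akt1 at 472 and Pik3r1 at 548.

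Among the 4 class I catalytic subunits, p110 delta made up most of the level per kb in young cells and about as much as the other 3 together in old ones. The share of Pik3cd was 73.2% ± 2.94 in young IL27RA- cells, 65.9% ± 11.8 in young IL27RA+ cells, 48.2% ± 4.47 in old IL27RA- cells and 47.2% ± 6.79 in old IL27RA+ cells (SD, n = 3 each). The lowest young library was at 57.3% and the highest old library at 53.4%. Pik3ca had a share of 5.66% in young IL27RA-, 12.7% in young IL27RA+, 20.4% in old IL27RA- and 17.3% in old IL27RA+ cells. Pik3cg, the p110 gamma subunit that acts below G protein-coupled receptors, had 20.6%, 19.4%, 28.5% and 30.2% in the same order, and Pik3cb, p110 beta, had 0.571%, 1.95%, 2.91% and 5.23%. These shares are a description and were not tested.

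**Figure D2:**
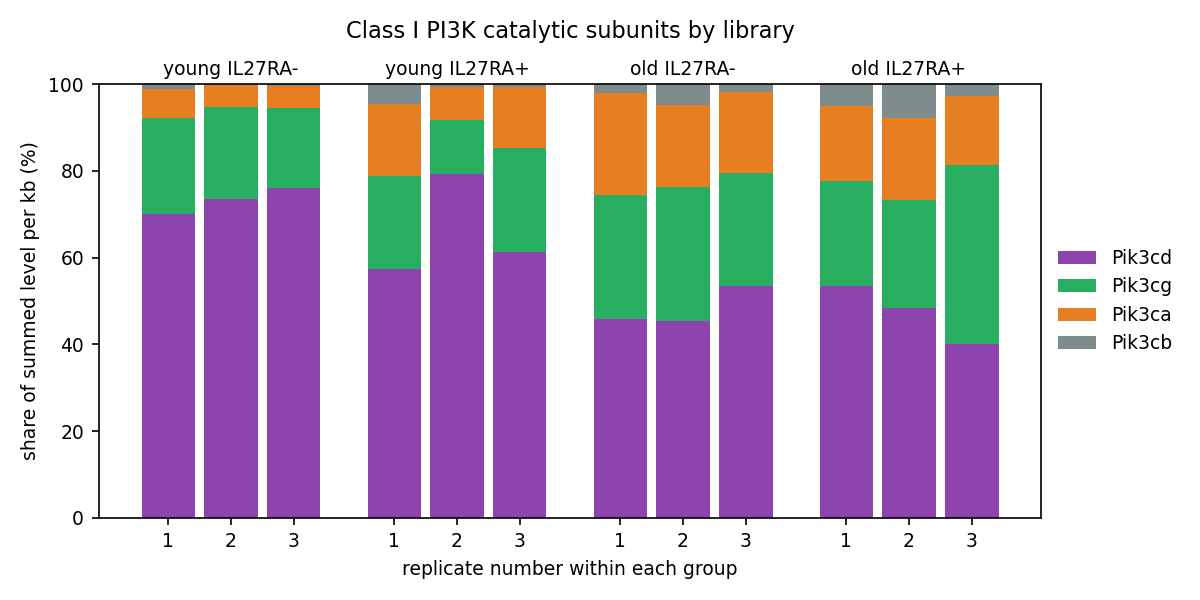
Share of each of the 4 class I PI3K catalytic subunits in their summed level per kb of exon (vertical axis, %), for each of the 12 libraries (horizontal axis, replicate number within each group). The Pik3cd share is 57.3% or more in the young libraries and 53.4% or less in the old ones.

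The other class I PI3K genes gave no call. Of 8 listed and measured, 6 were tested. The smallest p-values between fractions belonged to Pik3cb (0.95 ± 0.75, limma adjusted p = 0.828) and Pik3ip1 (-0.28 ± 0.26, 0.864). Pik3ip1, an inhibitor of p110, had group means of 12149 ± 4901, 8460 ± 2124, 6592 ± 2858 and 5908 ± 1607 normalized counts in young IL27RA-, young IL27RA+, old IL27RA- and old IL27RA+ cells, and its age difference of -0.72 ± 0.26 did not pass (limma adjusted p = 0.190). Pik3r5, the p101 regulatory subunit that pairs with p110 gamma, stood at 13.8 ± 14.0, 32.1 ± 53.6, 139 ± 71.9 and 72.6 ± 83.4 (age difference 2.82 ± 1.33, limma adjusted p = 0.334).

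Akt1 overlapped between all groups. Its normalized counts were 2048.1, 2319.3 and 2428.4 in young IL27RA- cells, 1836.7, 2698.7 and 1736.9 in young IL27RA+ cells, 2383.2, 1791.3 and 1632.5 in old IL27RA- cells, and 2008.0, 2201.2 and 1133.2 in old IL27RA+ cells. No group stood apart. The age difference was -0.25 ± 0.20 (95% interval -0.68 to 0.18, limma adjusted p = 0.620) and the fraction difference -0.15 ± 0.20 (0.914), or -0.33 and -0.070 without old IL27RA- replicate 1.

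None of the 20 other genes from AKT to mTOR and its effectors was called in either average, and 10 of them had a positive and 10 a negative age difference. Rheb, the GTPase that activates mTOR complex 1, came nearest: its group means were 3385 ± 697, 3958 ± 462, 5298 ± 716 and 5777 ± 608 normalized counts in young IL27RA-, young IL27RA+, old IL27RA- and old IL27RA+ cells. The old libraries started at 4562.4 and the young ones ended at 4351.1, and how many of all genes separated so was not counted. The age difference of Rheb, 0.60 ± 0.15, missed the threshold (limma adjusted p = 0.0524; 0.102 without old IL27RA- replicate 1). Deptor, an inhibitor of mTOR, differed by -0.68 ± 0.28 by age (limma adjusted p = 0.262). Foxo1, a transcription factor that AKT phosphorylates, had the smallest p between fractions in this list (-0.82 ± 0.38, limma adjusted p = 0.618), ahead of Gsk3b, a kinase that AKT inhibits (0.43 ± 0.20, 0.618).

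The phosphatases that oppose PI3K gave no call either, over 7 genes tested. Inpp5d, which encodes the 5-phosphatase SHIP1 of blood cells, stood at 2994 ± 676, 3155 ± 351, 2310 ± 444 and 2173 ± 240 normalized counts in young IL27RA-, young IL27RA+, old IL27RA- and old IL27RA+ cells (age difference -0.45 ± 0.16, limma adjusted p = 0.200). Between fractions the smallest p-values were those of the 4-phosphatase genes Inpp4a (0.77 ± 0.40, limma adjusted p = 0.672) and Inpp4b (-0.97 ± 0.58, 0.718).

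Counted together, 2 of the 8 tested IGF and PI3K genes, Igf1 and Pik3cd, were called lower with age on average over fractions, where 0.473% of all genes were called lower. The median age difference of the 8 was -0.47, against 0.06 over all genes. The same 2 were called within IL27RA- cells, where 0.155% of all genes were called lower. None was called within IL27RA+ cells (limma, 2 at an unadjusted p under 0.05, as were 8.88% of all genes, none with voom; 0.0811% of all genes called lower), although Igf1 and Pik3cd of the 2 ages did not overlap there either. No overlap with old below young was seen in 7.78% of all genes in that comparison and in 6.71% within IL27RA- cells.

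Between fractions none of the 8 was called on average over ages (limma, 1 at an unadjusted p under 0.05, as were 7.98% of all genes, none with voom; 0.0338% of all genes called lower). In young cells none was called (3 at an unadjusted p under 0.05, as were 8.23% of all genes, none with voom; 0.0203% of all genes called), while Igf1, Igf1r, Pik3r1 and Pik3cd, 4 of the 8, were lower in every IL27RA+ library than in every IL27RA- library, as were 4.73% of all genes. In old cells none was called (1 at an unadjusted p under 0.05, as were 5.38% of all genes, none with voom; 0.0203% of all genes called), and 1 of the 8, Pik3r1, did not overlap, against 5.38% of all genes. No interaction was called for any gene (0% of all genes), and none of the 8 had an unadjusted p under 0.05 for it.

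**Figure D3:**
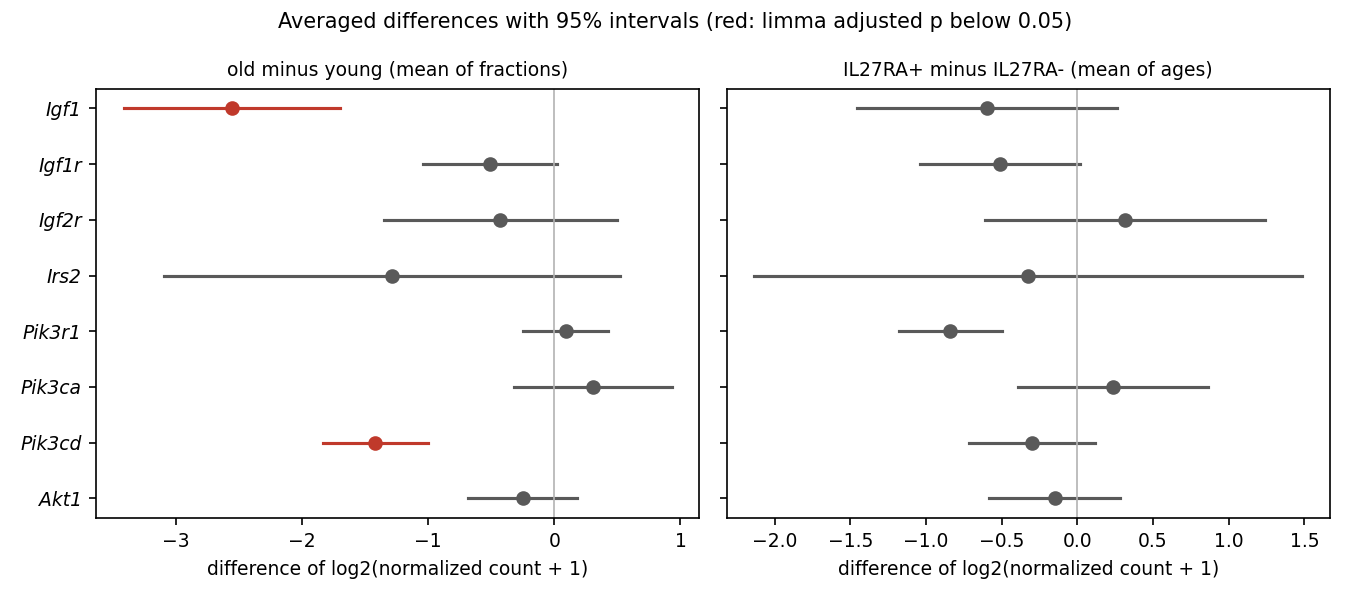
Difference of log2(normalized count + 1) with its 95% interval (horizontal axes) for the 8 tested IGF and PI3K genes (vertical axis), old minus young averaged over fractions on the left and IL27RA+ minus IL27RA- averaged over ages on the right. Igf1 at -2.56 and Pik3cd at -1.42, in red, are the only ones with a limma adjusted p below 0.05.

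The other genes of the pathway lay on both sides of 0. Over the 58 other pathway genes tested, the median age difference was 0.03, with 31 positive and 27 negative, and Sos1 was the only call. At an unadjusted p under 0.05 there were 13 of the 58, against 15.1% of all genes. The list medians were -0.25 for IGF ligands and binding proteins, 0.31 for receptors and adaptors, 0.20 for the other class I PI3K genes, -0.04 for the phosphatases, -0.01 for AKT, mTOR and effectors, and 0.12 for FoxO target transcripts. Between fractions none of the 58 was called with limma or voom, 7 had an unadjusted p under 0.05 (7.98% of all genes), and the median of the 58 was -0.04.

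**Figure D4:**
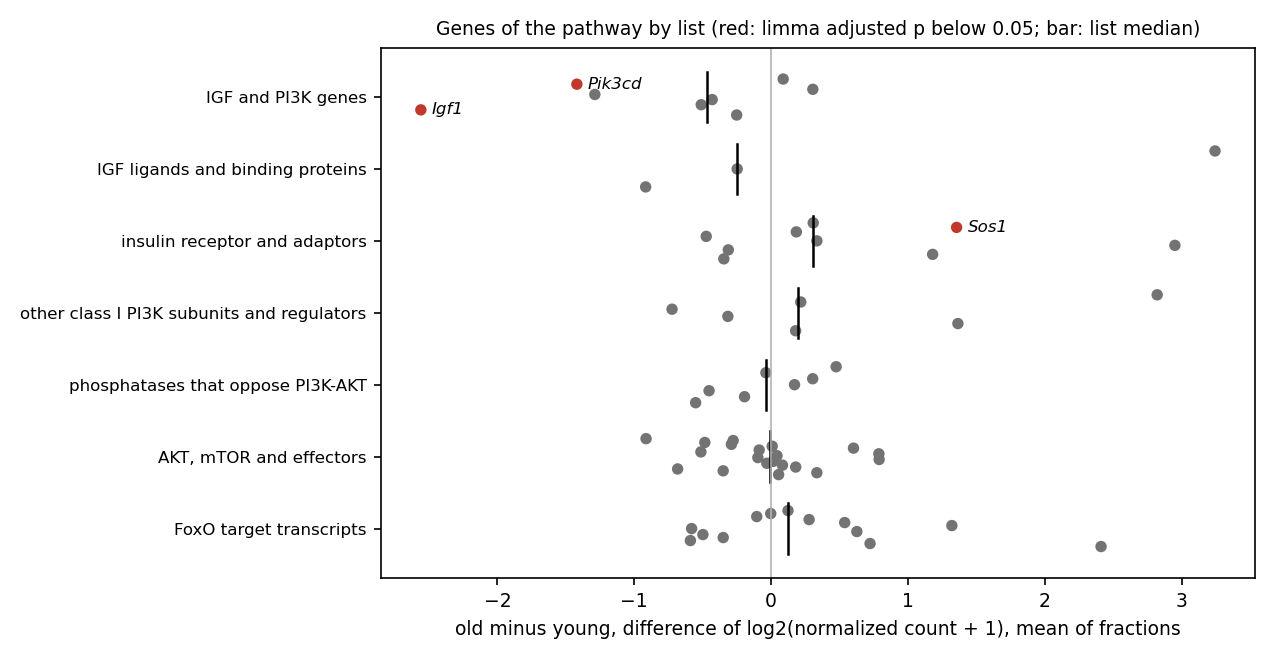
Age difference of log2(normalized count + 1), averaged over fractions (horizontal axis), of each tested gene (point) of the 7 lists (vertical axis), with the list median as a bar. Igf1, Pik3cd and Sos1, in red, have a limma adjusted p below 0.05, and the other points lie on both sides of 0.

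The genes whose log2 values over the 12 libraries were most like those of Igf1 were Hmga1 (Pearson r = 0.925), Pik3cd (0.921), Adam11 (0.920), Limk2 (0.916) and Col4a1 (0.915). Each had its highest group mean in young IL27RA- cells and the next in young IL27RA+ cells. Adam11, for example, averaged 1153 and 418 normalized counts in those groups, against 108 in old IL27RA- and 165 in old IL27RA+ cells. Genes among those most like Pik3r1 were Gltscr2 (0.864), Sertad2 (0.862), Hoxb5 (0.860) and Dgcr2 (0.857), each higher in both IL27RA- groups. Hoxb5, a homeobox gene of long-term stem cells, averaged 1014, 566, 1376 and 556 normalized counts in young IL27RA-, young IL27RA+, old IL27RA- and old IL27RA+ cells. These correlations describe 12 libraries that share group, depth and size factor within each point, and they were picked from all tested genes.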

How the data were processed

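The authors deposited log2 values for every gene and library. Judged by their spacing, they are log2(reads / size factor + 1), and whole reads came out for 100% of them (tolerance 0.001 reads). In 1 column a damaged line (Mtbp) holds a number that is no log2 value of the authors, so that column was recorded as other. The line was left out with 15 repeats. Per the submitters' processing notes, FastQC 0.11.5, TopHat2 2.1.1, HTSeq and DESeq2 were named, without role or order, and the sources used here do not state the build. Gene lengths and overlaps are from GENCODE M21, to which 19007 genes (92.9%) were matched by identifier.

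The log2 values of all 12 libraries were fitted in limma 3.58.1 (R 4.3.3), using a mean-variance trend and 1 mean per group (8 residual and 6.58 prior degrees of freedom), over genes at 10 or more on the linear scale in at least 3 libraries. Benjamini-Hochberg adjustment ran over all 14803 genes with a threshold of 0.05, and the fit was tested on simulated data. Log2 differences include the added 1, so changes of genes with few reads are understated. Limits from 3 reads cover counting error alone, since PCR copies are not independent. Pairwise r between libraries was 0.876 to 0.924 inside groups and 0.858 to 0.920 between them.

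The genes and lists were chosen with earlier results of these data known. Genes named beside the 9 were those of the pathway lists called in any comparison, the 2 per list with the smallest p by age and by fraction, the 5 most like Igf1 and the 5 most like Pik3r1 (predicted genes left out), and markers of other cells. Of the genes this rule names, 2 are not reported here. Alternatives were another pseudocount, filters, scalings, library weights, the compared groups alone, voom on the recovered reads, a replicate block and leaving out libraries.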

Additional observations from a re-analysis of the deposited data

How the results depend on the processing

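Each result was recomputed under 21 alternatives, or 22 within a single age or fraction, where the compared groups were also fitted alone. Of these, 1 (leaving out the 2 least weighted libraries, young IL27RA- replicate 2 and old IL27RA- replicate 1) was chosen after seeing the data. Of 836 alternative values of single genes, 790 kept direction and side of the threshold, 19 lost and 7 gained a call, and 20 turned sign. By age on average, Igf1 and Pik3cd were called under all 21: Igf1 ran from -2.68 to -2.39 (adjusted p 0.00236 to 0.0139) and Pik3cd from -1.55 to -1.31 (0.000835 to 0.00561). Within IL27RA- cells the count of IGF and PI3K genes called fell from 2 to 0 with the compared groups alone and without the 2 least weighted libraries (adjusted p = 0.106 for Igf1 and 0.0532 for Pik3cd), and ran from 0 to 2 when single libraries were left out. Between fractions it rose from 0 to 1 (Pik3r1) on average with a pseudocount of 8 and with library weights, from 0 to 1 in old cells with library weights, and ran from 0 to 1 on average when single libraries were left out.

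Of the other pathway genes 1 was called by age, 2 with median scaling, 0 without the 2 least weighted libraries and 0 to 2 when single libraries were left out. Across groups, deviations from the group mean correlated between -0.05 and 0.11 for same-numbered libraries and between -0.07 and 0.07 for other-numbered ones. With 3 libraries per group, this cannot tell whether a replicate number marks a shared mouse or day. The replicate block left 2 IGF and PI3K genes called by age on average and gave 2 other pathway genes, Sos1 and Rheb (0.0362 and 0.0361).

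Small differences turned sign. In old cells the fraction difference of Igf1 was -0.00036 with library weights, -0.11 with quantile normalization, -0.073 without the 2 least weighted libraries and -0.13 to 0.41 without single ones. That of Igf1r was 0.14 with weights, 0.26 without the 2 and -0.26 to 0.26 without single ones, and that of Pik3cd was 0.10, 0.15 and -0.31 to 0.17. Without single libraries the age difference in IL27RA+ cells ran from -0.22 to 0.11 for Igf1r and from -0.27 to 0.059 for Pik3r1, and the average fraction difference of Irs2 from -0.82 to 0.25. The cause was not tested, beyond the smaller number of libraries where some were left out. A count of 3 reads stood for 1.93 to 3.77 normalized counts, a limit that Irs1 did not reach in 11 libraries.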

Other observations

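FoxO factors switch on genes of antioxidant defence, cell cycle arrest and cell death when AKT is inactive, and 13 such target transcripts were measured and tested. None was called by age or by fraction with limma (4 and 3 at an unadjusted p under 0.05, against 15.1% and 7.98% of all genes) or with voom, and their age differences were 7 positive and 6 negative. Between fractions Ccng2, a cyclin of cell cycle arrest, had 347 ± 157 and 337 ± 45.4 normalized counts in young and old IL27RA- cells and 1098 ± 372 and 717 ± 369 in young and old IL27RA+ cells (SD, n = 3 each). Its difference was 1.31 ± 0.35 and did not pass (limma adjusted p = 0.212). Txnip, an inhibitor of thioredoxin, had a difference of the opposite sign, with 58716 ± 1499 and 62413 ± 8393 in IL27RA- against 41137 ± 4622 and 46747 ± 9705 in IL27RA+ cells (-0.47 ± 0.14, limma adjusted p = 0.290).

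By age, Cat, the catalase that breaks down hydrogen peroxide, stood at 5347 ± 1780 and 5003 ± 1422 in young IL27RA- and IL27RA+ cells and at 3147 ± 1107 and 3707 ± 671 in old ones (-0.59 ± 0.23, limma adjusted p = 0.241). Bcl2l11, which encodes the cell death protein BIM, stood at 146 ± 171 and 110 ± 93.8 in young and 322 ± 147 and 306 ± 96.4 in old cells (2.41 ± 0.99, limma adjusted p = 0.264).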
